A study of Homo sapiens with 4 samples.

Results

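The genes described here are the ZNF genes of human chromosome 19, a family of zinc finger genes that lie side by side in clusters. A member is a gene of GENCODE release 29 on chromosome 19 whose name is ZNF followed by digits (and at most 1 letter), and whose FPKM averaged 0.5 or more across the 4 libraries. FPKM count the sequenced fragments of a gene relative to its length and to the size of the library. Of 261 such names annotated on the chromosome, 197 had values, and 186 of these reached the minimum and are the members, out of 11650 genes with values and 11334 tested. The other 64 names were not analysed here. All 186 members are annotated as protein-coding.

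RNA came from 92.1, an established cell line of uveal melanoma, which is a tumour of the pigment cells of the eye. There were 2 libraries of parental cells, labelled Ctrl, and 2 of resistant cells derived from the line, labelled Res. No agent, dose or selection scheme is named for the resistance, and no other treatment or genetic change is given for either group. Separate cultures are not stated for the 2 libraries of a group, nor whether the resistant cells are 1 clone. A p-value here thus reflects the spread of these libraries alone, and that spread may be technical.

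Most ZNF genes of chromosome 19 encode proteins with an array of C2H2 zinc fingers, each finger holding a zinc ion and contacting a few bases of DNA. Many also carry a KRAB domain, which binds TRIM28 (KAP1), and TRIM28 in turn brings SETDB1, HP1 proteins and histone deacetylases that place repressive chromatin on the target. These genes arose by repeated local duplication, and many of their proteins bind and silence transposable elements. Transcripts of neighbouring members can therefore resemble each other, and reads from them can be split between genes.

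Members were expressed at a low level. The median of the members' mean was 1.55 FPKM, against 4.95 FPKM over all genes tested. Of the 186 members, 45 had a mean under 1 FPKM, 132 between 1 and 5 FPKM and 9 at or above 5 FPKM. The summed FPKM of the members was 485 and 463 in parental cells against 397 and 327 in resistant cells, so the groups did not overlap. As a share of all FPKM this was 0.171% and 0.163% in parental cells and 0.136% and 0.111% in resistant cells. Without ZNF146, the most abundant member, the sums were 421 and 396 in parental cells and 349 and 297 in resistant cells.

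Single members were mostly lower in resistant cells, but none passed the test on its own. Of the 186 members, 150 (80.6%) had a log2 fold change below 0 and 36 above 0, where 58.2% of all genes tested lay below and 41.8% above. The fold change is resistant over parental on the log2(FPKM + 1) scale, where changes of genes at a low level come out too small. Its median over members was -0.24, against -0.07 over all genes tested. In 96 members (51.6%) both resistant values lay below both parental values, an order found in 31.6% of all genes tested. The opposite order was found in 19 members (10.2%), against 19.6% of all genes, and in 71 members the groups overlapped.

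No member passed the adjusted threshold of 0.05 in limma, where 0.0529% of all genes (6 of 11334) did. At an unadjusted p under 0.05 in that test, 34 members (18.3%) were lower and 6 were higher, against 10.1% and 6.41% of all genes. The smallest adjusted p among members was 0.057. These counts moved with single libraries, and are not given for fits that leave 1 library in a group. The median log2 fold change over members was -0.24 without parental replicate 1 and -0.30 without parental replicate 2. Without resistant replicate 1 it was -0.35, and without resistant replicate 2 it was -0.15. Over all genes the medians in these fits were -0.05, -0.10, -0.15 and -0.01, in the same order. With 2 libraries in each group the smallest p of an exact permutation test is 0.333, so none was run for single genes. A mean FPKM at least 2-fold lower, with no library at 0, was found in 20 members, and at least 2-fold higher in 5, where 4.11% and 3.87% of all genes reached these folds.

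The direction of all genes depends on how libraries are scaled. With median-of-ratios scaling 49.2% of all genes lay below 0 and the unadjusted calls over all genes were 9.08% higher and 8.63% lower, while 139 of the 186 members lay below 0, 30 were lower and 10 higher at an unadjusted p under 0.05. Centring each library on its own median left 136 members (73.1%) below 0, against 49.9% of all genes. Quantile normalization left 143 members (76.9%) below 0, against 51.3% of all genes.

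**Figure D1:**
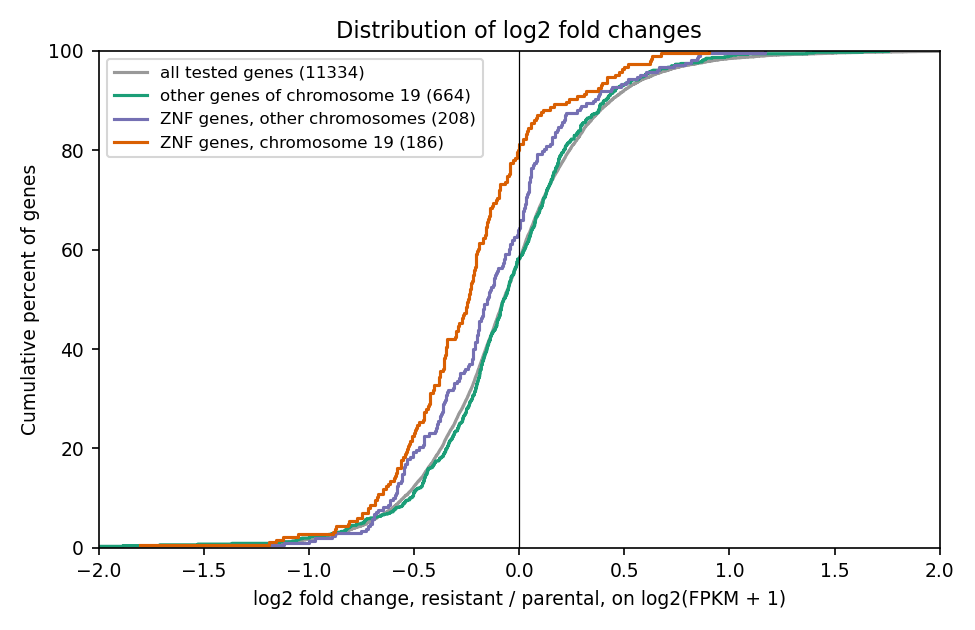
Cumulative percent of genes (y axis) against the log2 fold change of resistant over parental cells on log2(FPKM + 1) (x axis), for the 186 members, 208 ZNF genes of other chromosomes, 664 other genes of chromosome 19 and all 11334 genes tested. The curve of the members lies to the left, with 80.6% of members below 0 against 58.2% of all genes.

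Both resistant libraries contributed, to different degrees. The median member stood at 1.85 and 1.68 FPKM in parental cells and at 1.5 and 1.13 FPKM in resistant cells. Measured against the parental mean on the log2(FPKM + 1) scale, resistant replicates 1 and 2 had a median deviation over members of -0.15 and -0.35, where all genes had -0.01 and -0.15. These 2 values are also the medians with the other resistant library left out. Resistant replicate 1 lay below both parental libraries in 106 members (57.0%, all genes 40.6%), and resistant replicate 2 in 132 members (71.0%, all genes 55.1%). Resistant replicate 1 was above resistant replicate 2 in 128 members. The pooled spread between replicates on that scale was 0.254 for members in parental and 0.321 in resistant cells, against 0.262 and 0.370 over all genes. It is an SD (n = 2), taken as the root of the variance averaged over genes, so genes with discordant replicates weigh most.

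ZNF genes on other chromosomes are the nearest comparison. Of 208 tested, 134 (64.4%) lay below 0, 36.5% were lower and 13.0% higher without overlap of the groups, and the median was -0.15. Genes of chromosome 19 that are not zinc finger genes by name were split by whether they lie inside the spans of the clusters described further on. Outside these spans 593 such genes had a median of -0.06 with 57.7% below 0. Inside them 59 had a median of -0.10 with 55.9% below 0, but the first cluster, A, differed from the rest. Its 27 neighbours had a median of 0.17 with 9 below 0, while the 32 neighbours in the other spans had a median of -0.22 with 24 below 0, and 46.9% were lower and 9.38% higher without overlap. The values of these 32 lie close to those of the members. Some of these neighbours are read-through genes that share sequence with members. The 9 tested zinc finger genes of chromosome 19 under other names (ZFP, ZSCAN and PEG3) all lay below 0, 7 of them without overlap, with a median of -0.31. PEG3, a paternally expressed imprinted gene, measured 2.54 and 2.12 FPKM in parental and 0.742 and 0.757 FPKM in resistant cells. Another of these is ZFP36, whose protein has fingers of another type and binds RNA. These groups were described by counts and medians, and the difference between them and the members was not tested.

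Promoters of the members the results turn on are shown first, to show what the region before their RefSeq start holds. A single RefSeq promoter entry (GRCh38.p14) matched 136 members by symbol, and the 250 bases before the RefSeq start were searched on both strands for 5 short motifs. This start can differ from that of GENCODE, and the bases shown for ZNF146 and ZNF260 lie inside their GENCODE genes. For 117 of the 136, bases just after the RefSeq start were found in a GENCODE transcript of the same gene. Capitals in the sequences mark the matches. ZNF284 is the member with the largest difference, and its promoter (chr19:44071909-44072158, plus strand) holds the ETS motif CCGGAAG. The promoter of ZNF260 (chr19:36528272-36528521, minus strand) opens with CCAAT. That of ZNF146, the most abundant member (chr19:36214856-36215105, plus strand), holds none of the 5. The promoter of ZNF507, the member with the largest difference upward on the log2(FPKM + 1) scale though not by ratio of means (chr19:32345360-32345609, plus strand), holds the GC box GGGCGG read on the other strand, and ATGGCGG, a part of the YY1 motif, likewise on the other strand.
ZNF284: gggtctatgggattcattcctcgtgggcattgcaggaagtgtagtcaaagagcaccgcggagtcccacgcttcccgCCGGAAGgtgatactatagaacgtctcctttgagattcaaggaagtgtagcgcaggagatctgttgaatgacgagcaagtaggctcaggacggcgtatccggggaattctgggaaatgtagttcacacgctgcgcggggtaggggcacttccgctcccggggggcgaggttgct
ZNF260: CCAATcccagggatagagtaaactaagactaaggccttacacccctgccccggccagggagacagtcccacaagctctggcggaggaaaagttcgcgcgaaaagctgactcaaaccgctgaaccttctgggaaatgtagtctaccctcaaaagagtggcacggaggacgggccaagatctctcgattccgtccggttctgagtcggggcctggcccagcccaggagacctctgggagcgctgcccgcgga
ZNF146: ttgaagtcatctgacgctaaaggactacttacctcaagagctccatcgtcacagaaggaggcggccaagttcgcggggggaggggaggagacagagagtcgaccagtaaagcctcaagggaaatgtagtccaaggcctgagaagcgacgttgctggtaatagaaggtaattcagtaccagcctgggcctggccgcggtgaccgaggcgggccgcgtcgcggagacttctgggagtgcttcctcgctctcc
ZNF507: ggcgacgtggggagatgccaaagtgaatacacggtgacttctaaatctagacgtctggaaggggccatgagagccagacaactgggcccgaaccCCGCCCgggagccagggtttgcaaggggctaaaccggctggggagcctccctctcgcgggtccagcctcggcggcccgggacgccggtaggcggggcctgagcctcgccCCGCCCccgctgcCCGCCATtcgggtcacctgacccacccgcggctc

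CCGGAAG was found in 31.6% of the 136 member promoters, 28.2% of 163 promoters of ZNF genes on other chromosomes and 8.90% of all 22114 promoters. GGGCGG was found in 61.8%, 58.3% and 40.9%, and CCAAT in 57.4%, 46.6% and 33.4%. ATGGCGG stood in 7.35%, 5.52% and 2.68%, and GCATGCG, a part of the NRF1 motif, in 2.94%, 7.36% and 3.58%. The median number of CpG was 16 in member promoters, 19 in those of other ZNF genes and 9 in all. The 43 members with CCGGAAG had a median log2 fold change of -0.26 and the 93 with an entry and no such match had -0.22. The 78 members with CCAAT had -0.23 and the 58 without it -0.26. A match is a description of letters and not a binding site.

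Along the chromosome the annotated ZNF genes fell into 17 groups when a gap of at least 1 Mb ended a cluster. Of these, 8 held at least 5 members and 175 of the 186, and are called A to H from the start of the chromosome. The counts given below stand against 31.6% lower and 19.6% higher without overlap over all genes tested. Members lower without overlap ranged from 40.0% in B to 70.0% in E. At an unadjusted p under 0.05 in limma, lower members ranged from 5.0% in B to 42.1% in F, against 10.1% of all genes. The median log2 fold change was below 0 in all 8, from -0.15 in B to -0.42 in F, though 2 alternatives turned 1 cluster each, A without resistant replicate 2 and H with a minimum of 5 FPKM. With 1 resistant library left out, the median of a cluster is the median deviation of the other library from the parental mean. The 55 members before the centromere had a median of -0.21 (78.2% below 0) and the 131 after it -0.26 (81.7% below 0). Members on the plus strand had a median of -0.25 (101 genes) and on the minus strand -0.22 (85 genes).

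**Figure D2:**
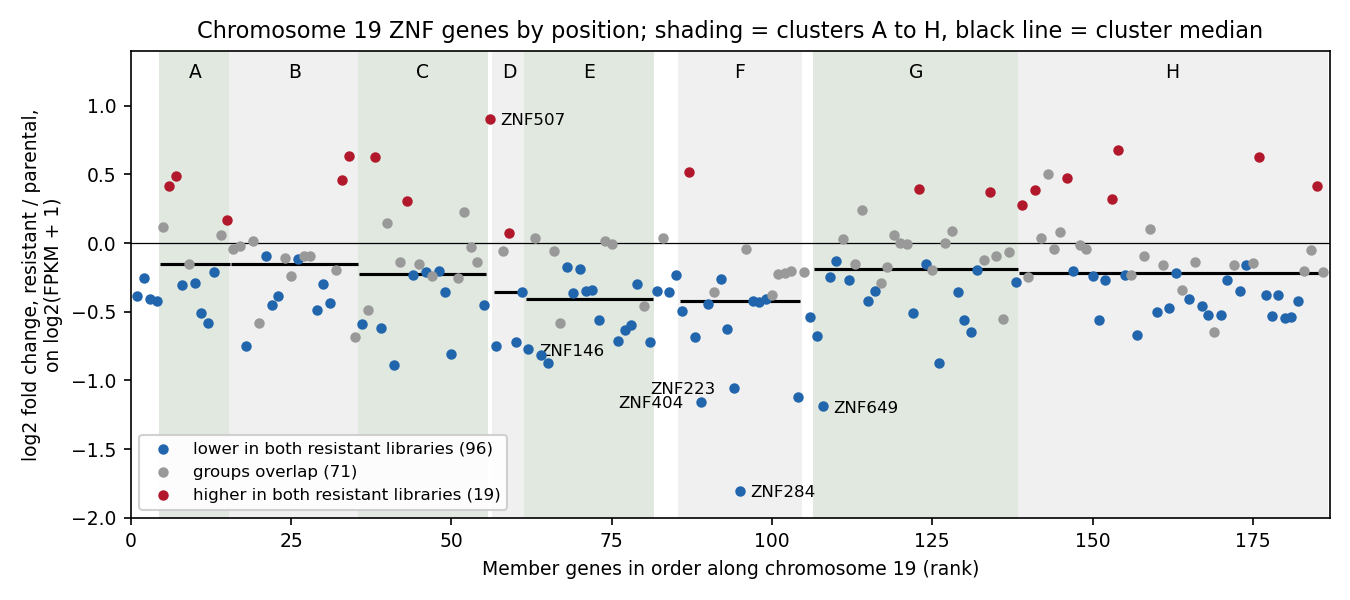
Log2 fold change of each of the 186 members, resistant over parental on log2(FPKM + 1) (y axis), by rank along chromosome 19 (x axis). Shading marks clusters A to H, the black line in each is its median, and colours separate 96 members that were lower, 19 that were higher and 71 whose groups overlap. Of the points in A 54.5% lie below 0, in every other cluster 77.1% or more, and the lowest, ZNF284, lies in F.

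**Figure D3:**
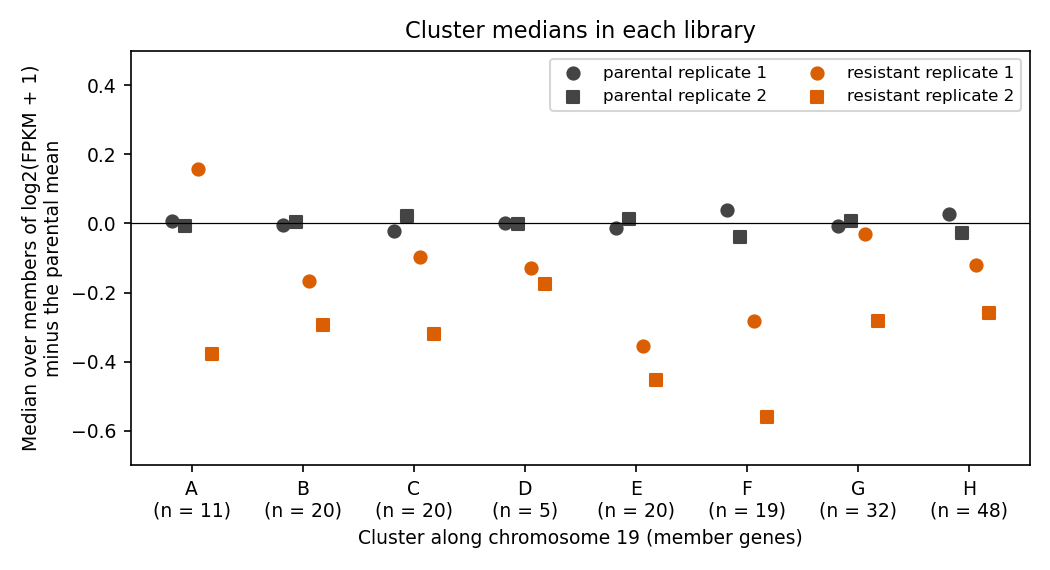
Median over the members of each cluster of log2(FPKM + 1) minus the parental mean (y axis), by cluster A to H (x axis), 1 point per library. The 2 parental points mirror each other by construction. Both resistant points lie below 0 in every cluster except A, where they lie at 0.16 and -0.38.

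Cluster F, from 43.5 to 45.1 Mb, held ZNF284, the member with the lowest log2 fold change, and a low median close to that of E. The order of D, E and F was not stable, since F had -0.62 with a pseudocount of 0.1 FPKM (D -0.81, E -0.73), -0.61 with a common sum (D -0.67, E -0.66), -0.44 with a minimum of 1 FPKM (E -0.58) and -0.29 without parental replicate 1 (E -0.41). Of its 19 members 18 lay below 0, 12 were lower and 1 higher without overlap, and the median was -0.42. Resistant replicate 1 had a median deviation of -0.28 and resistant replicate 2 of -0.56. Another 15 genes in the same span that are not zinc finger genes by name had a median of -0.19, with 11 below 0.

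ZNF284 (chr19:44072144-44089613, plus strand), a KRAB zinc finger gene, measured 2.47 and 2.50 FPKM in parental cells and is listed at 0 in both resistant libraries. The groups are fully apart. Its log2 fold change was -1.80 ± 0.14 (SE) with a limma adjusted p of 0.057. Because an exact 0 can be a failed estimate, no fold is given. This gene shares 43.9% of its 50-base stretches with transcripts of other genes, mostly with the read-through gene AC067968.1 (43.2%). AC067968.1 overlaps ZNF222, ZNF223 and ZNF284, and ZNF222 shares 15.3% of its stretches with it. AC067968.1 measured 0 and 0.0953 FPKM in parental cells and 1.09 and 0.603 FPKM in resistant cells, the opposite direction. The sum of ZNF284 and AC067968.1 was 2.47 and 2.60 FPKM in parental and 1.09 and 0.603 FPKM in resistant cells. This sum was still lower without overlap, but by less. Because FPKM are relative to the length of each gene, a move of reads between genes can itself change such a sum. The same holds for the sums over genes with shared sequence given further on. The part of the shared sequence in the result was not tested.

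ZNF223 (chr19:44051367-44067991, plus strand) lies directly before ZNF284. It measured 1.75 and 2.11 FPKM in parental and 0.837 and 0.087 FPKM in resistant cells. Both resistant values are lower, and they lie far from each other. The log2 fold change was -1.05 ± 0.28 (limma adjusted p = 0.198), and 57.7% of its 50-base stretches are shared with AC067968.1. The sum of ZNF223 and AC067968.1 was 1.75 and 2.21 FPKM in parental and 1.93 and 0.690 FPKM in resistant cells, and these groups overlap. ZNF222, ZNF223, ZNF284 and AC067968.1 together summed to 6.95 and 8.30 FPKM in parental and 3.92 and 2.10 FPKM in resistant cells.

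ZNF404 (chr19:43872363-43901385, minus strand) shares no such stretch with another gene. Its level was 1.90 and 1.82 FPKM in parental and 0.354 and 0.219 FPKM in resistant cells. Replicates lay close together in both groups, and the parental mean was 6.5 times the resistant mean. The log2 fold change was -1.15 ± 0.15 (limma adjusted p = 0.0779). It and ZNF284 were the only 2 members with an adjusted p under 0.1.

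ZNF428 (chr19:43607219-43619874, minus strand), the most abundant member of the cluster, was the exception. It measured 8.85 and 8.02 FPKM in parental and 12.1 and 12.9 FPKM in resistant cells, higher without overlap (log2 fold change 0.52 ± 0.17, limma adjusted p = 0.259). ZNF224, which has been described as a repressor that works with WT1, measured 1.48 and 1.29 FPKM in parental and 1.74 and 0.943 FPKM in resistant cells, with overlapping groups. ZNF180, named after its values were seen, measured 2.75 and 3.06 FPKM in parental cells and 2.20 FPKM in resistant replicate 1, and is listed at 0 in resistant replicate 2.

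Cluster E, from 36.2 to 37.8 Mb, held the most abundant member and the largest share of members that were lower without overlap. Of its 20 members 18 lay below 0 and 14 were lower without overlap, none was higher, and the median was -0.41. Resistant replicates 1 and 2 had median deviations of -0.36 and -0.45. At an unadjusted p under 0.05 in limma 8 members (40.0%) were lower, against 10.1% of all genes.

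ZNF146 (chr19:36214602-36238774, plus strand), a protein made almost wholly of zinc fingers with no KRAB domain, had the highest level of all members. It measured 63.9 and 67.1 FPKM in parental and 48.2 and 29.7 FPKM in resistant cells. Parental libraries lay close together while the resistant ones lay apart (mean 65.5 ± 2.26 against 39.0 ± 13.1 FPKM, SD, n = 2). The log2 fold change was -0.77 ± 0.26 (limma adjusted p = 0.257), and leaving out resistant replicate 2 gave -0.43.

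ZNF260 (chr19:36510695-36528660, minus strand), another finger-only protein, measured 5.09 and 5.78 FPKM in parental and 2.52 and 2.80 FPKM in resistant cells. Both groups were tight, and the parental mean was 2.04 times the resistant mean (log2 fold change -0.81 ± 0.18, limma adjusted p = 0.161). Its neighbour ZNF529 (chr19:36534774-36605276, minus strand) measured 2.71 and 3.04 FPKM in parental and 1.68 and 0.672 FPKM in resistant cells, with a log2 fold change of -0.87 ± 0.27 (limma adjusted p = 0.236).

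Cluster D, from 34.5 to 35 Mb, is small. Of 5 members 4 lay below 0, 3 were lower and 1 higher without overlap, with a median of -0.35. Resistant replicates 1 and 2 had median deviations of -0.13 and -0.18. ZNF302 (chr19:34677639-34686397, plus strand) was both the most abundant and the most different. It measured 4.11 and 3.24 FPKM in parental and 1.96 and 1.59 FPKM in resistant cells (log2 fold change -0.75 ± 0.20, limma adjusted p = 0.195).

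Cluster C, from 19.7 to 24.1 Mb, lies next to the centromere and is known for primate genes that silence transposable elements. Of 20 members 16 lay below 0, 9 were lower and 2 higher without overlap, and the median was -0.22. Resistant replicates 1 and 2 had median deviations of -0.10 and -0.32. ZNF43 (chr19:21804949-21852125, minus strand) measured 2.94 and 3.29 FPKM in parental and 1.44 and 1.25 FPKM in resistant cells (log2 fold change -0.81 ± 0.17, limma adjusted p = 0.153). ZNF93, which silences LINE-1 elements, was the most abundant member. Its level was 3.59 and 4.31 FPKM in parental and 2.35 and 2.10 FPKM in resistant cells (-0.62 ± 0.19, limma adjusted p = 0.229).

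ZNF91, which silences SVA elements, had overlapping groups, at 2.08 and 1.56 FPKM in parental and 1.61 and 1.90 FPKM in resistant cells. ZNF85 had the largest difference of the cluster, from 3.14 and 3.82 FPKM in parental to 2.48 and 0.684 FPKM in resistant cells (-0.89 ± 0.37, limma adjusted p = 0.318). Its value rests on resistant replicate 2, since the log2 fold change without that library was -0.36. ZNF253 was higher, at 0.372 and 0.243 FPKM in parental and 0.660 and 1.44 FPKM in resistant cells (0.62 ± 0.22, limma adjusted p = 0.275). ZNF675, which binds TRAF6, overlapped between groups, at 1.41 and 1.63 FPKM in parental and 1.5 and 1.09 FPKM in resistant cells.

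Cluster B, from 11.5 to 12.6 Mb, had 17 of 20 members below 0 with small differences (median -0.15), 8 lower and 2 higher without overlap. ZNF700, its most abundant member, measured 6.96 and 6.71 FPKM in parental and 5.81 and 3.82 FPKM in resistant cells. ZNF823 (chr19:11721265-11739009, minus strand) measured 2.84 and 3.66 FPKM in parental and 1.86 and 1.22 FPKM in resistant cells (-0.75 ± 0.22, limma adjusted p = 0.220).

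ZNF490 (chr19:12577961-12640098, minus strand), the member nearest above the minimum, went the other way. It measured 0.143 and 0.216 FPKM in parental and 0.980 and 0.685 FPKM in resistant cells (0.63 ± 0.15, limma adjusted p = 0.172). ZNF490 shares 68.3% of its 50-base stretches with other genes, mostly with the read-through gene AC010422.6. AC010422.6 measured 1.151 and 1.153 FPKM in parental and 0.0996 and 0.0589 FPKM in resistant cells. With ZNF564, which shares sequence with the same gene, the 3 summed to 2.86 and 3.15 FPKM in parental and 4.40 and 2.87 FPKM in resistant cells, and these groups overlap. The part of the shared sequence in the result was not tested.

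Cluster A, from 7.1 to 9.8 Mb, held members of both directions. Of 11 members 6 lay below 0, 5 were lower and 3 higher without overlap. Its median of -0.16 rests on resistant replicate 2, and without that library it was 0.16. ZNF358 (chr19:7515292-7521026, plus strand) measured 18.2 and 15.1 FPKM in parental and 20.1 and 25.1 FPKM in resistant cells, higher without overlap (0.42 ± 0.20, limma adjusted p = 0.365). The overlapping gene AC008878.1, which holds 18.4% of its 50-base stretches, measured 2.55 and 14.1 FPKM in parental and 1.32 and 0 FPKM in resistant cells. The sum of both was 20.8 and 29.2 FPKM in parental and 21.4 and 25.1 FPKM in resistant cells, and these groups overlap. ZNF121 (chr19:9560353-9584533, minus strand) measured 9.98 and 10.01 FPKM in parental and 6.91 and 5.85 FPKM in resistant cells (-0.58 ± 0.18, limma adjusted p = 0.239). ZNF558, a repressor of the mitophagy gene SPATA18, measured 1.73 and 1.85 FPKM in parental and 1.59 and 0.976 FPKM in resistant cells. In the same span 27 genes of other kinds had a median of 0.17, with 9 below 0 and 9 higher without overlap.

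Cluster G, from 51.6 to 53.6 Mb, had 25 of 32 members below 0, 15 lower and 2 higher without overlap, and a median of -0.19. Resistant replicates 1 and 2 deviated by a median of -0.03 and -0.28. ZNF649 (chr19:51889224-51905040, minus strand), a repressor of serum response and AP-1 reporters, measured 2.89 and 1.94 FPKM in parental and 1.15 and 0.0233 FPKM in resistant cells. The resistant libraries lie far apart, with a log2 fold change of -1.19 ± 0.38 (limma adjusted p = 0.251) that was -0.65 without resistant replicate 2. ZNF468 measured 2.32 and 2.65 FPKM in parental and 0.533 and 1.36 FPKM in resistant cells (-0.87 ± 0.25, limma adjusted p = 0.216). It shares 57.6% of its 50-base stretches, most with ZNF320, and the sum of both, 5.87 and 3.44 FPKM in parental and 2.38 and 3.22 FPKM in resistant cells, is lower without overlap.

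ZNF480, the most abundant member of G, overlapped between groups, at 7.22 and 7.73 FPKM in parental and 7.53 and 4.64 FPKM in resistant cells. ZNF331, an imprinted gene in some tissues, measured 2.90 and 2.21 FPKM in parental and 1.79 and 2.01 FPKM in resistant cells (-0.29). ZNF350, known as ZBRK1 and as a partner of BRCA1, measured 2.21 and 2.10 FPKM in parental and 2.08 and 1.70 FPKM in resistant cells (-0.13).

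Cluster H, from 55.5 to 58.5 Mb at the end of the chromosome, is the largest, with 48 members. Of these 37 lay below 0, 22 were lower and 7 higher without overlap, and the median was -0.22. Resistant replicates 1 and 2 had median deviations of -0.12 and -0.26. ZNF274, which binds the 3' ends of other zinc finger genes and recruits SETDB1 there, measured 3.44 and 3.37 FPKM in parental and 2.58 and 1.58 FPKM in resistant cells (-0.54 ± 0.22, limma adjusted p = 0.318). ZNF460 (chr19:57280051-57293569, plus strand) was higher, at 0.206 and 0.280 FPKM in parental and 1.56 and 0.538 FPKM in resistant cells (0.68 ± 0.26, limma adjusted p = 0.30). ZNF444, a SCAN domain gene, measured 0.931 and 0.981 FPKM in parental and 1.54 and 1.91 FPKM in resistant cells (0.48 ± 0.16, limma adjusted p = 0.266). ZNF581 split within the parental group, at 14.2 and 5.36 FPKM, around resistant values of 8.17 and 8.92 FPKM.

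Another 11 members lie outside these clusters, 9 of them below 0 and 8 lower without overlap. Above 0 were ZNF780A, with a log2 fold change of 0.04 and overlapping groups, and ZNF507 (chr19:32345594-32387667, plus strand), which stands alone in its stretch of the chromosome. It measured 0.566 and 0.890 FPKM in parental and 2.95 and 1.62 FPKM in resistant cells, all resistant values above all parental ones. The resistant mean was 3.14 times the parental mean (log2 fold change 0.90 ± 0.25, limma adjusted p = 0.208).

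**Figure D4:**
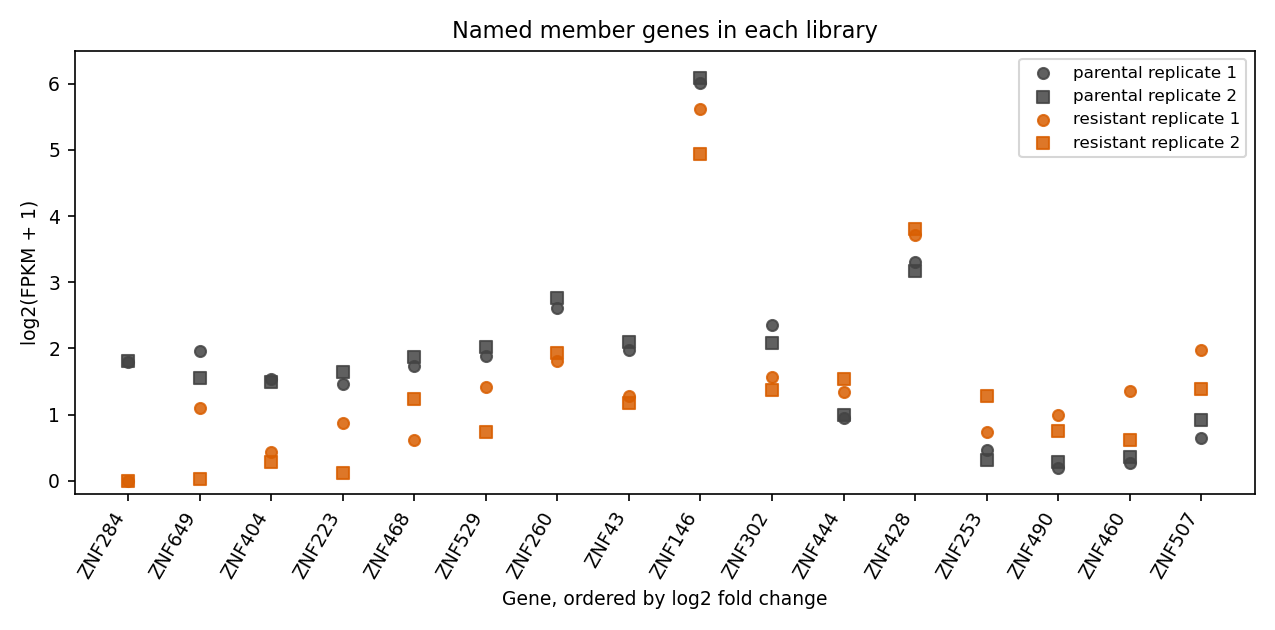
Level of named members as log2(FPKM + 1) (y axis) in each of the 4 libraries, with genes ordered by log2 fold change (x axis). Only members with an unadjusted p under 0.05 in limma and no overlap are drawn, at most 10 a direction. The groups are thus apart in every gene shown by this choice, and named members with overlapping groups are left out. Points of the resistant libraries lie below the parental ones on the left, from ZNF284 on, and above them on the right, up to ZNF507.

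Members were also split by how much sequence they share with other genes. Of the 186 members, 44 shared at least 10% of their 50-base stretches with other genes and 31 shared none. The 142 members under 10% had a median of -0.27 with 83.1% below 0, and the 44 others -0.16 with 72.7% below 0. An annotated gene on the same strand overlaps 80 members, and one on the opposite strand 93, and no source used here says whether counting used strand. The member rule and the minimum in the files can also pass a gene through the group where it is high. A group mean under 0.5 FPKM was found in 15 members, 5 times in parental and 10 times in resistant cells. Among them are ZNF490, ZNF460 and ZNF253, named as higher, and ZNF284, ZNF404 and ZNF223, named as lower. Of the 171 others 140 (81.9%) lay below 0. At an unadjusted p under 0.05 in limma 28 of these (16.4%) were lower and 3 (1.75%) higher. All genes tested had 10.1% and 6.41%, without such a split.

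Cofactors of KRAB zinc finger proteins were followed as a list of 33, all tested. None passed the adjusted threshold in limma, and 21 (63.6%) lay below 0, against 58.2% of all genes. Without overlap 10 were lower (30.3%, all genes 31.6%) and 3 higher (9.09%, all genes 19.6%). The median was -0.15, against -0.07 over all genes. TRIM28, the central corepressor, measured 31.8 and 26.2 FPKM in parental and 25.3 and 26.4 FPKM in resistant cells, with overlapping groups. SETDB1, the H3K9 methyltransferase it recruits, measured 5.63 and 7.10 FPKM in parental and 5.26 and 4.27 FPKM in resistant cells. CBX5, the HP1 alpha protein, measured 13.7 and 12.6 FPKM in parental and 12.8 and 10.2 FPKM in resistant cells, again overlapping.

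Of the list, 4 genes (12.1%) were lower at an unadjusted p under 0.05 in limma and 1 (3.03%) was higher, against 10.1% and 6.41% of all genes. DNMT3B, a de novo DNA methyltransferase, measured 4.42 and 3.95 FPKM in parental and 2.18 and 1.67 FPKM in resistant cells (-0.83 ± 0.19, limma adjusted p = 0.167). EHMT1, an H3K9 methyltransferase, measured 2.67 and 2.70 FPKM in parental and 1.35 and 1.3 FPKM in resistant cells (-0.66 ± 0.16, limma adjusted p = 0.178). MORC2, which works with the HUSH silencing complex, measured 5.60 and 5.10 FPKM in parental and 3.27 and 2.97 FPKM in resistant cells (-0.62 ± 0.18, limma adjusted p = 0.217). DAXX, a histone H3.3 chaperone, measured 23.6 and 21.3 FPKM in parental and 14.7 and 15.0 FPKM in resistant cells (-0.56 ± 0.16, limma adjusted p = 0.219). TRIM33, a relative of TRIM28, measured 5.89 and 6.51 FPKM in parental and 11.4 and 17.4 FPKM in resistant cells (1.07 ± 0.25, limma adjusted p = 0.167).

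The labelled cell type was checked against markers. All 7 melanocyte markers had values and summed to 2584 and 2304 FPKM in parental and 2992 and 2260 FPKM in resistant cells. TYRP1 made up most of this sum, at 1490 and 1484 FPKM in parental and 2143 and 1514 FPKM in resistant cells. Another 3 of the 7 were lower without overlap. DCT measured 4.88 and 5.46 FPKM in parental and 0.486 and 0.517 FPKM in resistant cells. SOX10 measured 91.8 and 73.3 FPKM against 54.9 and 54.3 FPKM, and MITF 35.3 and 37.4 FPKM against 9.64 and 31.8 FPKM. Of 5 epithelial markers 3 had values, summing to 3.12 and 3.91 FPKM in parental and 9.39 and 17.7 FPKM in resistant cells. Of 5 fibroblast markers 2 had values (0.750 and 0.847 FPKM against 1.91 and 2.42 FPKM), and of 5 leukocyte markers 2, CD68 and LCP1 (32.6 and 27.4 FPKM against 13.2 and 10.7 FPKM). The defining markers EPCAM, PTPRC, PECAM1 and 8 others had no values and could not be compared. In bulk RNA fewer cells of a type and less RNA per cell cannot be told apart, and the part of these markers in the results was not tested. The FPKM of all genes summed to 282602 and 283387 in the parental pair and to 292736 and 293481 in the resistant pair. Read depth cannot be read from FPKM.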

How the data were processed

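RNA from 2 parental and 2 resistant samples was sequenced after poly(A) selection or ribosomal RNA depletion, with dUTP stranded libraries, per the labels' protocols. The route used for each library, the aligner, the counting program and the annotation release were not given in the sources used here. Sample titles name 92.1 throughout and were followed where the cell line label goes up with each sample. The values deposited by the authors are FPKM, 1 per gene and library, per the file headers, and the build was hg38, per the submitters' processing notes. Of 11650 identifiers, 11551 carry a suffix used for annotation mapped to the older build, and 11596 were found in GENCODE 29 (GRCh38), which gave names and positions. No gene had a larger group mean under 0.5009 FPKM, which points to a minimum near 0.5 set before deposit. Between 25 and 80 genes per library are listed at 0.

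The 11334 genes averaging 0.5 FPKM or more were compared as log2(FPKM + 1) with limma 3.58.1 (R 4.3.3; variance trend; two-sided), Benjamini-Hochberg at 0.05, and tested on simulated data. Summaries used Python 3.11.15 and pandas 2.3.3. Deviations of the first replicates of both groups correlated at -0.0666 across genes, so the numbers were not taken to pair the libraries. Lists, members and alternatives were chosen with earlier results of these data known. Named members were those with unadjusted p under 0.05 and no overlap (at most 10 a direction, by size of the log2 fold change), the 5 most abundant, the most abundant and most different of each cluster, 9 members of a fixed list (ZNF382, also on it, is no member) and members at the minimum. Cofactors named were TRIM28, SETDB1, CBX5 and those with unadjusted p under 0.05 and no overlap. Read-through genes, their partners, ZNF180, ZNF780A, PEG3, ZFP36 and ZNF229 were named after their values were seen. Shared sequence is the percent of 50-base stretches of a gene's GENCODE transcripts found in other genes' transcripts. Protein features were not analysed here.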

Additional observations from a re-analysis of the deposited data

How the results depend on the processing

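Of 245 alternative values for the counts and medians over members and clusters, 195 kept their direction and moved by less than the spread between replicates (medians) or stayed within 1.5 times (counts). Of 438 for named genes 420 kept their direction and their side of the threshold, but not their size: with a pseudocount of 0.1 FPKM ZNF284 went to -4.69, ZNF649 to -2.65 and ZNF490 to 1.73. The median over members stayed below 0 in all of its alternatives, from -0.44 to -0.044. The last, with a minimum of 5 FPKM, was not below the median of all genes in that setting (-0.098). With a pseudocount of 0.1 FPKM it was -0.44, and B, C, D, E and G had -0.30, -0.39, -0.81, -0.73 and -0.30. With a common sum of FPKM per library it was -0.40, B, C, D, E and G had -0.30, -0.37, -0.67, -0.66 and -0.32, and 1 member (ZNF284) passed the adjusted threshold. With a minimum of 1 FPKM, set for all genes or for members alone, B and E had -0.34 and -0.58. Then 12 members (8.51%) were higher without overlap and 3 (2.13%) higher at an unadjusted p under 0.05 in limma. Of all genes at that minimum 19.1% and 6.06% were. A minimum of 5 FPKM left 9 members, with a median of -0.044 and a reversed H at 0.079. Of these 9, 3 were lower (33.3%) and 2 higher (22.2%) without overlap, against 34.3% and 18.3% of all genes. At an unadjusted p under 0.05 in limma 2 (22.2%) were lower and 1 (11.1%) higher, where 11.2% and 5.81% of all genes were. At this minimum the median and the share lower without overlap did not set the members below all genes. The share lower at an unadjusted p was larger than that of all genes, and all these shares rest on 9 members. Median-of-ratios scaling gave 10 higher at an unadjusted p, and centring gave B and D -0.078 and -0.28. Members that share under 10% of their 50-base stretches, an alternative chosen after seeing the data, gave B -0.24. Cluster medians of fewer than 3 members were given no value. ZNF581, ZNF91 and ZNF224 turned to 0.050, 0.041 and 0.0084 with median-of-ratios scaling, and to 0.031, 0.046 and 0.030 with centring. With quantile normalization ZNF581 and ZNF91 turned to 0.037 and 0.011.

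Leaving out 1 library in turn gave 0 to 1 members past the adjusted threshold (ZNF284, without either parental library), 13 to 71 lower and 2 to 9 higher at an unadjusted p, and 106 to 132 lower and 28 to 35 higher without overlap, where 38.7% to 55.1% of all genes were lower and 25.9% to 39.0% higher without overlap. These fits assume that the lone library of a group varies like the others. The 71 came without resistant replicate 1, and 16 and 13 without parental replicates 1 and 2. Medians ranged from -0.35 to -0.15 over members, -0.38 to 0.16 in A (0.16 without resistant replicate 2), -0.29 to -0.16 in B, -0.32 to -0.10 in C, -0.36 to -0.13 in D, and -0.28 to -0.029 in G. ZNF581 ranged from -0.67 to 0.58, ZNF91 from -0.16 to 0.11, ZNF224 from -0.29 to 0.20 and ZNF480 from -0.59 to 0.0096. With the replicate number as a block 30 members (16.1%) were lower and 5 (2.69%) higher at an unadjusted p under 0.05 in limma. Of all genes 8.83% were lower and 5.88% higher in that fit. No member passed the adjusted threshold, and the median was -0.24. Only 2 libraries per group and low FPKM limit the precision.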

Other observations

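Of the ZNF genes of chromosome 19 with values, 11 fell below the minimum of 0.5 FPKM. Of these, 8 lay below 0 and 7 were lower in resistant cells without overlap of the groups. No gene had a larger group mean under 0.5009 FPKM, so genes averaging under 0.5 FPKM are listed only through their higher group. A difference between groups was thus built in, and these counts cannot be set against the 31.8% of all genes with no minimum. Just below the minimum, ZNF582 measured 0.769 and 0.456 FPKM in parental and 0.359 and 0.407 FPKM in resistant cells. ZNF229, in cluster F, measured 0.615 and 0.641 FPKM in parental cells and 0.0342 FPKM in resistant replicate 1, and is listed at 0 in resistant replicate 2.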
